A study of Mus musculus with 6 samples.

Results

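The 6 genes of glutamate and GABA clearance were followed across the cell types of the mouse hypothalamus. They were taken by symbol from the deposited count table, which lists 16411 genes, and all 6 were found: Slc1a2, Slc1a3, Slc6a11, Slc7a10, Glul and Glud1. Each of the 6 had UMIs (unique molecular identifiers, that is, counted molecules) in all 8 well-sampled cell types, and all 6 passed the filter on low counts in all 7 comparisons described here.

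Glutamate released at synapses is removed mostly by sodium-driven carriers in the membrane of astrocytes, and inside these cells glutamine synthetase turns it into glutamine, which returns to neurons. GABA is taken up by related carriers in neurons and astrocytes. Astrocytes are best known for this work in the hypothalamus as elsewhere, while tanycytes and ependymal cells line the third ventricle and oligodendrocytes form myelin.

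Whole cells of the hypothalamus of male ob/ob mice, which lack leptin and are obese and diabetic, were profiled with 10x Genomics 3' chemistry. All mice used here had been given 3 µg of FGF1 R50E, a point mutant of fibroblast growth factor 1, into a cerebral ventricle, and were killed on day 5 at an age of 11 weeks. Each library came from 1 mouse, and of 6 labelled mice, 4 (numbered 3, 4, 30 and 34) had cells. No other treatment is labelled, so every mouse had the same genotype and injection, no effect of FGF1 R50E was estimated, and the comparisons are between cell types of the same mice.

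The 4 libraries held 20151 cells, from 3005 to 7386 per mouse, with median depths between 909 and 1066 UMIs per cell. Between the libraries 194 cell barcodes were shared, which touched 391 cells. The authors' 9 cell types were used as deposited. Of the markers listed for each type, all were highest in their own type, except that among the 6 tanycyte markers Scn7a was not. Marker genes of mural cells reached 3246 to 3620 CPM (counts of a gene scaled so that each sum totals 1e+06) in the cells labelled endothelial, so that type also holds signal of vessel wall cells. Each of the 8 types had at least 20 cells in every mouse, while vascular leptomeningeal cells reached that number only in mouse 30, with 44 cells. No type was labelled as neurons, and 6 neuronal markers summed to between 201 and 323 CPM in astrocytes. Committed oligodendrocyte precursors (COPs) differed in depth between mice, since the median COP of mouse 3 held 2402.5 UMIs and that of mouse 34 held 2342.5, against 1219.5 for mouse 4 and 1081 for mouse 30.

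The genes lie on 6 chromosomes of GRCm38 (GENCODE M21): Slc1a2 at chr2:102658659-102790784, Slc6a11 at chr6:114131241-114249952, Slc7a10 at chr7:35186385-35201114, Glul at chr1:153899944-153909723 and Glud1 at chr14:34310727-34345265 on the plus strand, and Slc1a3 at chr15:8634124-8710764 on the minus strand. All 6 are protein coding. Slc7a10 meets the end of Lrp3 on the opposite strand, and Glul shares its first bases with Teddm2, also on the opposite strand. Of the 8 types, oligodendrocyte precursor cells had the highest pooled level of Lrp3, at 37.9 CPM, against 14.9 CPM in COPs. Pooled levels of Teddm2 were at most 4.07 CPM. Whether the counting used strand is not given in the sources used here.

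To show what stands in front of genes with different patterns, the 250 bases before the RefSeq start (GRCm38.p6) are printed for 3 members: Slc1a3, which was high in astrocytes and tanycytes, Slc6a11, which was high in astrocytes, and Glul, which was highest in oligodendrocytes. Capitals mark matches on either strand to 6 short motifs. The box known for fixing the start of transcription is TATAAA. A common promoter element bound by NF-Y is CCAAT. The element bound by the Sp1 family is GGGCGG. One arm of the sites of nuclear factor I, a family active in astrocytes, is TTGGCA. The core of the sites of SOX factors is ACAAT. The E box searched, bound by basic helix-loop-helix factors, is CACGTG. Read on the opposite strand, the NF-Y element can share letters with the nuclear factor I arm.
Slc1a3, chr15:8710808-8711057, minus strand: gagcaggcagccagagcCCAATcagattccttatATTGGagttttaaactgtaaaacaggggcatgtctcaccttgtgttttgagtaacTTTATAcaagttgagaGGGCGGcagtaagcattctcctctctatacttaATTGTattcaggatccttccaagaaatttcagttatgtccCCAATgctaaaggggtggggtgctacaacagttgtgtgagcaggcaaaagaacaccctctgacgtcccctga
Slc6a11, chr6:114130991-114131240, plus strand: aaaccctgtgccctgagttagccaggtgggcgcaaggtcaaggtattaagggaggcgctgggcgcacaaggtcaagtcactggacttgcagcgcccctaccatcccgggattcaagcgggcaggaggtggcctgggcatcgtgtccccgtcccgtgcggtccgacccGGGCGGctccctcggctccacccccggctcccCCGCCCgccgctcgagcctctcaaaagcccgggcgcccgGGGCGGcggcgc
Glul, chr1:153899679-153899928, plus strand: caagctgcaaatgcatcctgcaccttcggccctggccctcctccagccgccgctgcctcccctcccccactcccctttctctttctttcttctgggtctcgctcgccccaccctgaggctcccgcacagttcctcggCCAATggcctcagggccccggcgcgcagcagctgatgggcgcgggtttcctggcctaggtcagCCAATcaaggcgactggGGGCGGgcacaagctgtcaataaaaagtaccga
The windows differ in composition. The Slc1a3 window had 44.8% G and C and 2 CpG dinucleotides, below the medians of 52.4% and 6 over 32851 promoters of the same length, while the Slc6a11 window had 71.2% and 25 and the Glul window 64.8% and 15. The Sp1 element (GC box) occurred 3 times in front of Slc6a11 and 1 time each in front of Slc1a3 and Glul, was found in 5 of the 6 members, and 32.7% of all promoters held it. The NF-Y element (CCAAT box) occurred 3 times in front of Slc1a3 and 2 times in front of Glul, and 33.8% of all promoters held it. Only Slc1a3 among the 6 members held the TATA box (12.4% of all promoters) and the SOX core (27.7%). Both matches were on the other strand, the TATA box 161 to 156 bases before the start and the SOX core 112 to 108 bases before it. No member held the arm of the nuclear factor I site (12.3%) or the E box (6.02%). These letters are descriptions of the windows and not known sites. The entry for Slc1a2 starts inside the gene model of GENCODE, at chr2:102706188-102706437, and held none of the 6 motifs.

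Slc1a2 encodes the glutamate transporter GLT-1 (EAAT2), the main glutamate carrier of the forebrain. Its level in astrocytes was 3818, 3968, 4589 and 3921 CPM in mice 3, 4, 30 and 34, a mean of 4074 ± 349 (SD, n = 4). Tanycytes held 1448, 1458, 1562 and 1632 CPM in the same order, with a mean of 1525 ± 88.3, and oligodendrocyte precursor cells (OPCs) 1478, 1382, 1626 and 1485, with a mean of 1493 ± 101. Astrocytes stood apart from both in every mouse, whereas tanycytes and OPCs overlapped and neither was the higher one in more than 2 of the 4 mice. Microglia (994 CPM), endothelial cells (987), oligodendrocytes (918) and ependymal cells (714) followed with overlapping neighbours, and COPs were lowest at 487 ± 93.7 CPM, below every ependymal value.

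Slc1a3 encodes GLAST (EAAT1), the other main astrocytic glutamate carrier, which radial glia and their relatives also use. Astrocytes held 2930, 3280, 3462 and 3139 CPM in mice 3, 4, 30 and 34, a mean of 3203 ± 225 (SD, n = 4). Tanycytes came next with 908, 1378, 1340 and 1104 CPM, a mean of 1183 ± 219. No tanycyte value reached the astrocytes or fell to the OPCs, whose values ran from 488 to 722 CPM. The mean levels of microglia, oligodendrocytes, ependymal cells and endothelial cells lay between 379 and 514 CPM and their neighbours overlapped, and COPs were lowest at 240.4 ± 83.2 CPM.

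Slc6a11 encodes the GABA transporter GAT-3, which sits on astrocyte processes. Its level in astrocytes was 3644, 3738, 3594 and 3386 CPM, a mean of 3590 ± 149 (SD, n = 4) and the smallest relative spread between mice of the 6 genes in that type. Tanycytes held 526, 566, 524 and 504 CPM, which is 14.8% ± 0.321 of the astrocyte level of the same mouse. Below astrocytes the neighbouring types overlapped one after another, from 530 CPM in tanycytes to 243 CPM in COPs.

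Slc7a10 encodes Asc-1, a sodium-independent exchanger of small neutral amino acids that include D-serine and glycine, the co-agonists of NMDA-type glutamate receptors. Astrocytes held 427, 407, 264 and 365 CPM in mice 3, 4, 30 and 34, a mean of 366 ± 72.6 (SD, n = 4), with mouse 30 the lowest. Every other type with enough cells had a mean of at most 51.1 CPM, the value of OPCs, and ependymal cells were lowest at 14.2 CPM. The 4 values in ependymal cells lay between 13.2 and 14.8 CPM and rested on 32 UMIs in all.

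Glul encodes glutamine synthetase, the enzyme that joins ammonia to glutamate. Unlike the transporters, Glul was highest in oligodendrocytes, with 2768, 2588, 3465 and 3006 CPM in mice 3, 4, 30 and 34, a mean of 2957 ± 379 (SD, n = 4). Astrocytes followed with 1882, 2058, 2193 and 2135 CPM, a mean of 2067 ± 135, and no astrocyte value reached the lowest oligodendrocyte value. Endothelial cells held 1260.1 ± 84.3 CPM and microglia 1077 ± 220.3, which overlapped, although endothelial cells were the higher type in all 4 mice. Tanycytes (605 CPM), OPCs (581), ependymal cells (441) and COPs (310) were lower. The vascular leptomeningeal cells of mouse 30 held 1485 CPM, with no second mouse to compare.

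Glud1 encodes glutamate dehydrogenase of the mitochondria, which turns glutamate into alpha-ketoglutarate. Astrocytes held 541, 700.3, 622 and 569 CPM, a mean of 608 ± 70.2 (SD, n = 4), and no other type came near, since OPCs followed at 200.2 ± 16.2 CPM. The means of the remaining types ran from 173 CPM in endothelial cells to 118 CPM in COPs and each neighbouring pair overlapped.

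Over the 6 genes, 28 of the 42 pairs of neighbours in the order of levels overlapped between mice. The highest type never overlapped the next one. Since only the 3' end of transcripts is counted, levels are compared between types for each gene and not between genes.

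**Figure D1:**
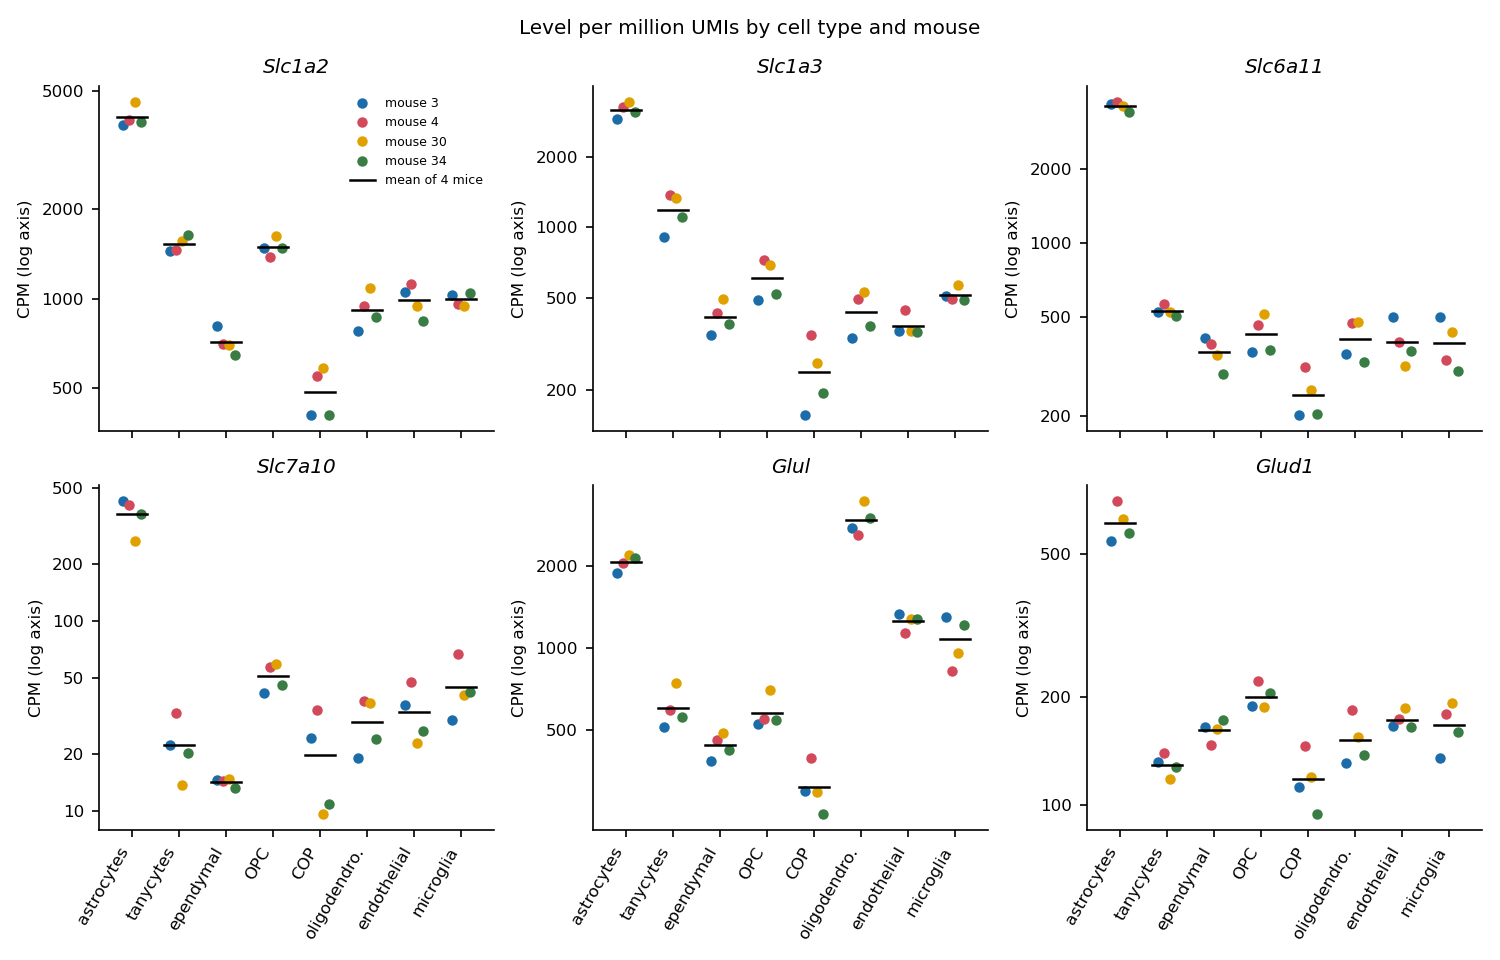
Levels of the 6 genes in CPM (log axis) in 8 cell types, 1 point per mouse and a line for the mean of 4 mice. The astrocyte points lie above all other types for every gene except Glul, where the oligodendrocyte points, at 2588 to 3465 CPM, are highest.

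Counted as UMIs per cell, the low levels of Slc6a11 outside astrocytes and tanycytes were alike across types. This measure was added after the levels had been seen. Slc6a11 averaged 3.47 UMIs per astrocyte and 0.66 per tanycyte, but between 0.427 and 0.524 in microglia, COPs, OPCs, oligodendrocytes, endothelial cells and ependymal cells. Microglia, the immune cells of the brain, should lack Slc6a11, and how much of the low level is free RNA from broken cells was not tested.

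Set against the microglia of the same mouse, tanycytes held more Slc6a11 per cell in 4 of 4 mice. OPCs, oligodendrocytes, endothelial cells and ependymal cells did so in 3 of 4 and COPs in 2 of 4. For Slc1a2 the per-cell means were 3.94 in astrocytes, 1.90 in tanycytes, 1.59 in OPCs and 1.30 in endothelial cells, against 1.08 in microglia, and these 4 types exceeded the microglia in all 4 mice. COPs, at 0.881, did so in none. For Slc1a3 astrocytes (3.10 UMIs per cell), tanycytes (1.47) and OPCs (0.632, against 0.560 in microglia) exceeded the microglia in all 4 mice. For Slc7a10 and Glud1 astrocytes were the only type above microglia in every mouse, at 0.353 against 0.0506 and at 0.592 against 0.183 UMIs per cell. For Glul oligodendrocytes (3.53), astrocytes (2.00) and endothelial cells (1.66) lay above the microglia (1.15) in all 4 mice, and tanycytes, ependymal cells, OPCs and COPs lay below them in all 4, at 0.572 to 0.748.

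**Figure D2:**
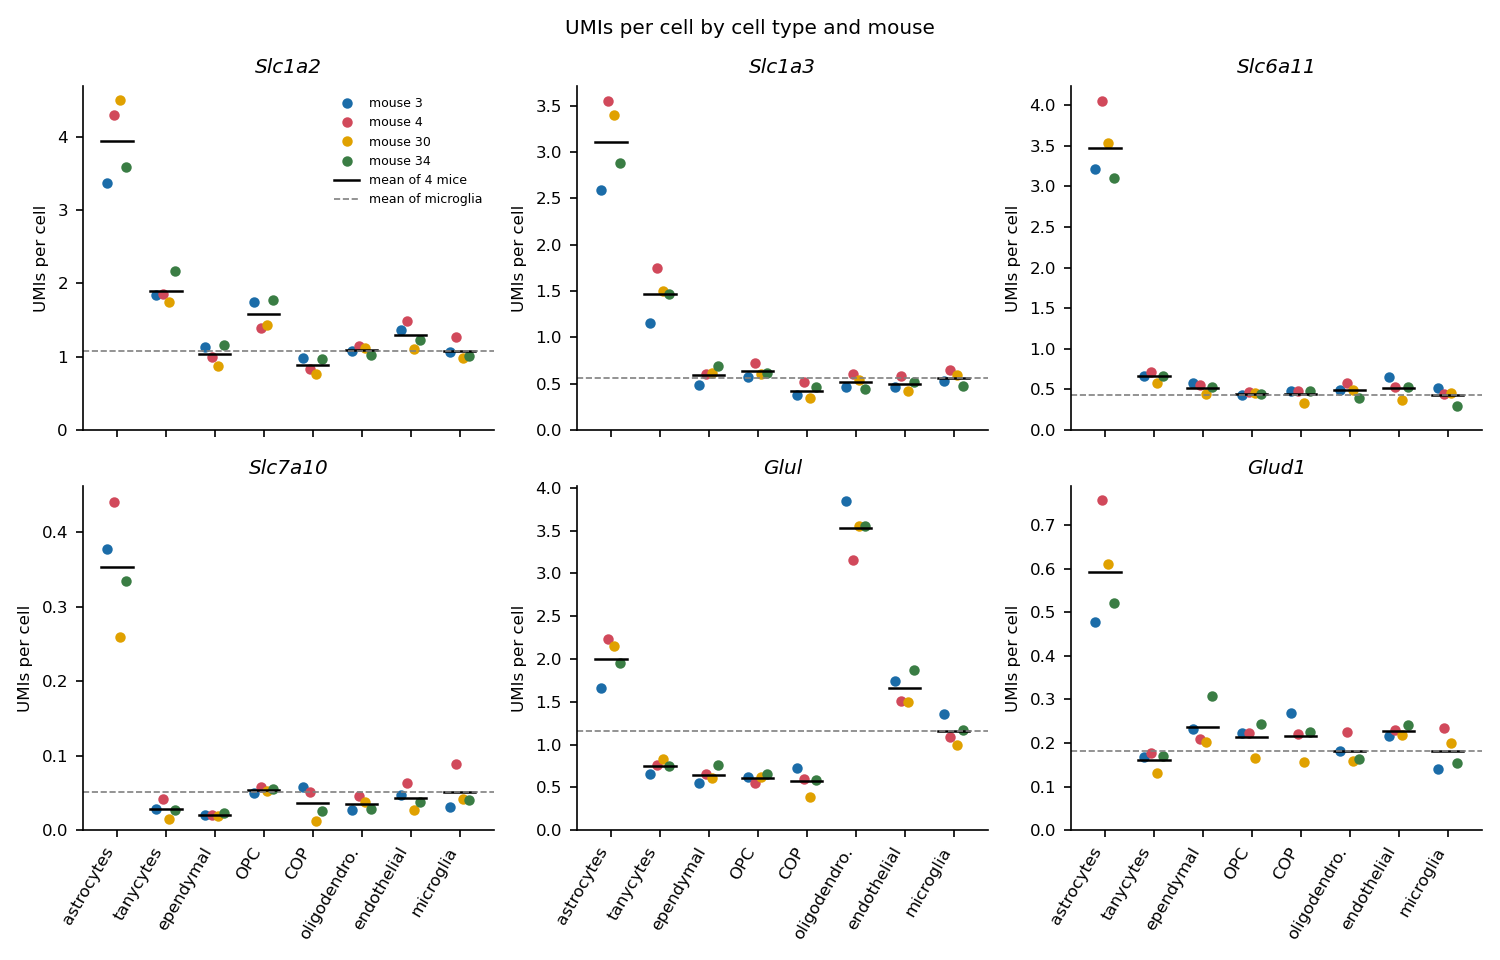
UMIs per cell of the 6 genes in 8 cell types (linear axes from 0), 1 point per mouse, a solid line for the mean of 4 mice and a dashed line for the mean of microglia. For Slc6a11 the types other than astrocytes and tanycytes have means of 0.427 to 0.524, close to the dashed line, whereas for Glul tanycytes, ependymal cells and both precursor types lie below it.

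The summed level of 6 astrocyte markers (Agt, Gja1, Aqp4, Aldh1l1, Ntsr2 and Gfap) was read beside the members. It ran from 5371 to 5685 CPM in astrocytes, 852 to 1003 in tanycytes, 587 to 758 in OPCs and 578 to 699 in microglia. In endothelial cells it was 501 to 767, in oligodendrocytes 469 to 689 and in COPs 177 to 482. Summed over the mice, each of the 6 markers had UMIs in these types. Ependymal cells had a higher marker sum than tanycytes, 1263 to 1327 CPM, while Slc1a2 and Slc1a3 were called lower in them. Oligodendrocytes, where Glul was highest, had a marker sum close to that of microglia.

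To compare how many cells carried each transcript at equal depth, cells were thinned to 600 UMIs, which left out 36 astrocytes, 37 tanycytes, 77 OPCs and no microglia. Slc1a2 was then found in 88.0% ± 1.62 of astrocytes (SD, n = 4), 53.4% ± 0.408 of tanycytes and 59.0% ± 0.649 of OPCs, against 45.3% ± 3.77 of microglia, while endothelial cells (43.9%) and oligodendrocytes (40.9%) overlapped the microglia, and ependymal cells (35.9%) and COPs (24.7%) lay below every microglial value. Slc1a3 was found in 81.7% ± 2.78 of astrocytes and 47.4% ± 4.94 of tanycytes, against 23.1% ± 0.923 of microglia. Slc6a11 was found in 86.4% ± 1.02 of astrocytes and 26.3% ± 0.852 of tanycytes, against 19.1% ± 3.78 of microglia. OPCs, oligodendrocytes, endothelial cells and ependymal cells lay at 19.3% to 21.4% for Slc6a11, within the spread of the microglia, and COPs had a lower mean of 12.7% ± 3.20. These differences were not tested. Thinned to 900 UMIs instead, which left out 3501 of 5909 astrocytes and 168 of 380 microglia, tanycytes and microglia overlapped for Slc6a11 (34.1% to 38.4% against 21.3% to 36.3%) and for Slc1a2 (62.9% to 64.8% against 54.8% to 69.5%), which they did not at 600 UMIs. Without thinning the shares were 94.6%, 71.4%, 75.2% and 63.6% for Slc1a2 and 89.8%, 67.5%, 40.6% and 35.0% for Slc1a3 in astrocytes, tanycytes, OPCs and microglia. Those for Slc6a11 were 93.7% of astrocytes, 43.3% of tanycytes and 29.1% of microglia. Depth before thinning differed between types, with median UMIs per cell of 829.5 to 888 in the astrocytes, 932 to 1208 in the tanycytes, 765 to 1154 in the OPCs and 893 to 1000.5 in the microglia of the 4 mice.

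Slc7a10 was found in 19.2% ± 3.30 of thinned astrocytes, against 0.882% to 2.84% in the other 7 types, and without thinning in 27.9% of astrocytes and 4.65% of microglia. Glud1 was found in 30.0% ± 2.55 of thinned astrocytes, against 7.26% to 11.1% in the others, and without thinning in 42.2% and 17.1%. Glul was found in 78.7% ± 3.53 of thinned oligodendrocytes, 68.9% ± 2.89 of astrocytes, 51.4% ± 2.41 of endothelial cells and 46.0% ± 6.13 of microglia, and in 16.2% to 30.6% of the remaining 4 types. Without thinning the Glul shares were 91.0%, 81.1%, 72.0% and 63.3% in the same order.

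Astrocytes were compared with tanycytes, another large glial population among these cells, in the same mice. All 6 genes were called higher in astrocytes by the limits used throughout, which were 0.05 for the adjusted p and a difference of more than 1 in log2 units (edgeR quasi-likelihood F test, Benjamini-Hochberg over 10081 genes), in 4 of 4 mice each. Of all genes tested, 11% were called higher in astrocytes and 10.1% higher in tanycytes. Since the authors' types rest on gene expression, counts of calls between types are descriptive. The difference was smallest for the glutamate carriers, with a log2 fold change of 1.43 (SE 0.061, adjusted p = 3.11e-21) for Slc1a2 and 1.47 (SE 0.068, adjusted p = 3.16e-20) for Slc1a3. It was 1.81 (SE 0.071) for Glul, 2.23 (SE 0.087) for Glud1, 2.78 (SE 0.065) for Slc6a11 and 4.12 (SE 0.13) for Slc7a10, all at an adjusted p of at most 3.31e-22. Tanycytes thus kept 37.6% ± 3.15 of the astrocyte level of Slc1a2 and 36.7% ± 4.73 of that of Slc1a3, but 5.99% ± 1.40 of that of Slc7a10 (SD, n = 4).

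Against ependymal cells, all 6 genes were again called higher in astrocytes, where 14.3% of all genes were called higher in astrocytes and 17.6% higher in ependymal cells. The log2 fold changes ran from 1.99 (SE 0.13) for Glud1 to 4.80 (SE 0.18) for Slc7a10, with an adjusted p of at most 3.31e-11. Slc1a2 differed by 2.62 (SE 0.11) and Slc1a3 by 3.08 (SE 0.11).

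Tanycytes and ependymal cells share the ventricle wall. Of the 6 genes, 2 were called higher in tanycytes and none higher in ependymal cells, beside 6.73% and 13.1% of all genes. They were the glutamate carriers, Slc1a3 with a log2 fold change of 1.59 (SE 0.091, adjusted p = 3.55e-19) and Slc1a2 with 1.18 (SE 0.091, adjusted p = 5.82e-15), in 4 of 4 mice. The values of the other 4 stayed inside the limit of 1, at 0.65 (SE 0.093) for Slc6a11, 0.53 (SE 0.088) for Glul, 0.68 (SE 0.29) for Slc7a10 and -0.26 (SE 0.12) for Glud1. In UMIs per cell the tanycyte to ependymal log2 ratio was 1.29 for Slc1a3 and 0.87 for Slc1a2, higher in all 4 mice.

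Against OPCs, the dividing precursors of oligodendrocytes, all 6 genes were called higher in astrocytes in 4 of 4 mice, beside 12.4% of all genes higher in astrocytes and 10.9% higher in OPCs. Slc1a2 differed least, with a log2 fold change of 1.73 (SE 0.073, adjusted p = 1.23e-29), and Slc6a11 most, with 3.39 (SE 0.090, adjusted p = 2.71e-39). Slc1a3 differed by 2.72 (SE 0.085). OPCs kept 36.7% ± 1.87 of the astrocyte level of Slc1a2 and 18.8% ± 2.65 of that of Slc1a3.

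From OPCs to COPs, the next stage of the lineage, all 6 genes were lower in COPs in CPM. 3 were called higher in OPCs, which are Slc1a2 at a log2 fold change of 1.62 (SE 0.083, adjusted p = 2.08e-32), Slc1a3 at 1.34 (SE 0.11, adjusted p = 8.05e-19) and Slc7a10 at 1.21 (SE 0.33, adjusted p = 0.00122), beside 13.2% of all genes higher in OPCs and 10.8% higher in COPs. Without mouse 30 the value of Slc7a10 was 0.98 and no longer past the limit. In COPs this gene had only 12, 10, 2 and 3 UMIs in mice 3, 4, 30 and 34. Slc6a11 (0.78, SE 0.12), Glul (0.86, SE 0.11) and Glud1 (0.74, SE 0.16) were short of the limit on fold. A COP held more UMIs in all than an OPC, and counted per cell the log2 ratio of OPCs over COPs was 0.85 for Slc1a2 and 0.59 for Slc1a3, higher in OPCs in 4 of 4 mice. For Slc7a10, the third gene called, it was 0.78 ± 1.02 (SD, n = 4) and higher in OPCs in 3 of 4. It was 0.037 for Slc6a11, 0.13 for Glul and -0.011 for Glud1, with mice on both sides.

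From COPs to oligodendrocytes, Glul rose more than any other member. Its log2 fold change, COPs over oligodendrocytes, was -3.50 (SE 0.11, adjusted p = 8.44e-42), from 246 to 397 CPM in COPs to at least 2588 CPM in oligodendrocytes, and in UMIs per cell it was -2.66. Slc1a2 (-1.19, SE 0.092), Slc1a3 (-1.14, SE 0.11) and Slc6a11 (-1.02, SE 0.11) were also called higher in oligodendrocytes, so that 4 of 6 genes were, beside 13.8% of all genes, and none was called higher in COPs, beside 13.3%. The call of Slc6a11 sits on the limit and was lost without mouse 3 (-0.99), without mouse 30 (just short of 1 in size) or without the cells of highest doublet score (-0.99). These fits scale libraries by TMM, and as plain ratios of CPM the mean log2 values of Slc1a2, Slc1a3 and Slc6a11 were -0.93, -0.89 and -0.76, all short of the limit. In UMIs per cell they were -0.32, -0.28 and -0.15. Slc7a10 (-0.63, SE 0.31, adjusted p = 0.081) and Glud1 (-0.61, SE 0.14) were not called. Without mouse 3 Slc7a10 was at -1.02 and passed.

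Astrocytes and oligodendrocytes are the types that hold the most Glul. 5 genes were called higher in astrocytes, beside 18% of all genes, and none was called higher in oligodendrocytes, beside 12.5%. The log2 fold changes were 2.00 (SE 0.098) for Slc1a2, 2.76 (SE 0.10) for Slc1a3, 3.00 (SE 0.11) for Slc6a11, 3.69 (SE 0.15) for Slc7a10 and 1.85 (SE 0.098) for Glud1. Glul went the other way in 4 of 4 mice, with -0.67 (SE 0.095, adjusted p = 5.77e-08), short of the limit on fold. Oligodendrocytes held 143% ± 13.5 of the astrocyte level of Glul (SD, n = 4), with a range of 126% to 158%. Markers of oligodendrocytes summed to 427 to 710 CPM in astrocytes and 12235 to 15235 CPM in oligodendrocytes.

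**Figure D3:**
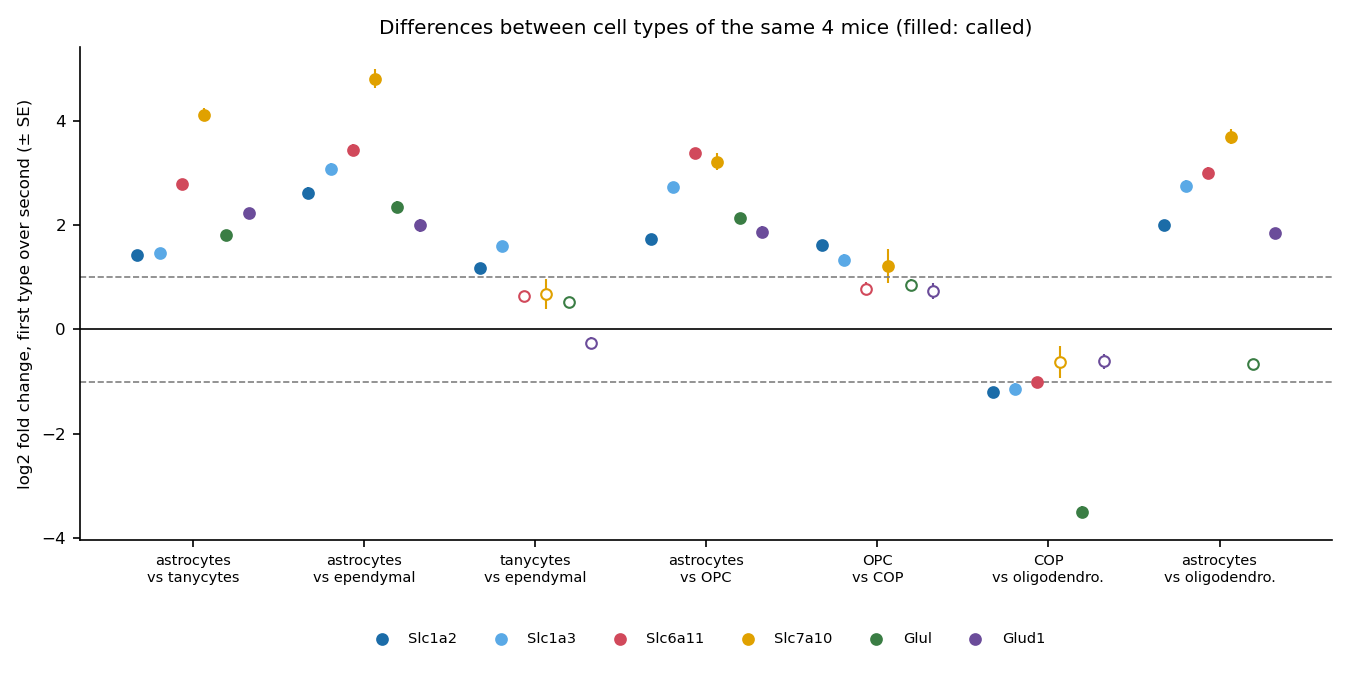
Log2 fold changes of the 6 genes in 7 comparisons of cell types within the same 4 mice, with standard errors, filled where called and open where not. Dashed lines mark 1 and -1. Glul in committed precursors against oligodendrocytes, at -3.50, is the lowest point, and Slc7a10 in astrocytes against ependymal cells, at 4.80, the highest.

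Oligodendrocytes and astrocytes together held most Glul UMIs of the sampled cells. Of 35739 UMIs, 45.8% were in oligodendrocytes and 31.1% in astrocytes, whereas astrocytes held 52.1% of the 41545 UMIs of Slc1a2, 59.9% of the 28440 of Slc1a3, 71.8% of the 27184 of Slc6a11, 82.0% of the 2589 of Slc7a10 and 53.9% of the 5908 of Glud1. Tanycytes held 20.8% and 22.2% of the UMIs of Slc1a2 and Slc1a3. These shares also follow the numbers of cells sampled.

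The mean balance of the 2 glutamate carriers varied between types, but no difference could be called with 4 mice. The log2 ratio of Slc1a2 to Slc1a3 UMI counts was 0.38, 0.27, 0.41 and 0.32 in the astrocytes of mice 3, 4, 30 and 34, a mean of 0.35 ± 0.060 (SD, n = 4), which is 1.27 Slc1a2 UMIs for each of Slc1a3. In tanycytes it was 0.67, 0.081, 0.22 and 0.56, a mean of 0.38 ± 0.28, and lay on both sides of the astrocytes. In OPCs it was 1.60, 0.94, 1.24 and 1.52, a mean of 1.32 ± 0.30, and in endothelial cells 1.38 ± 0.13. Ependymal cells (0.80), microglia (0.95), COPs (1.06) and oligodendrocytes (1.10) lay between. In each mouse the ratio was lower in astrocytes and in tanycytes than in OPCs. Mean Slc1a3 UMIs per cell in oligodendrocytes (0.514), endothelial cells (0.499) and COPs (0.426) lay below those of microglia (0.560). Ependymal cells (0.599) and OPCs (0.632) lay little above. How far free RNA sets the ratio in these types was not tested. Over 4 mice a two-sided exact sign-flip permutation test cannot go below p = 0.13, and 19 of the 28 differences between pairs of types reached that value, with a smallest Benjamini-Hochberg adjusted p of 0.184. Mean differences were -0.98 ± 0.27 for astrocytes minus OPCs and -0.039 ± 0.26 for astrocytes minus tanycytes (exact permutation p = 0.13 and p = 0.75).

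**Figure D4:**
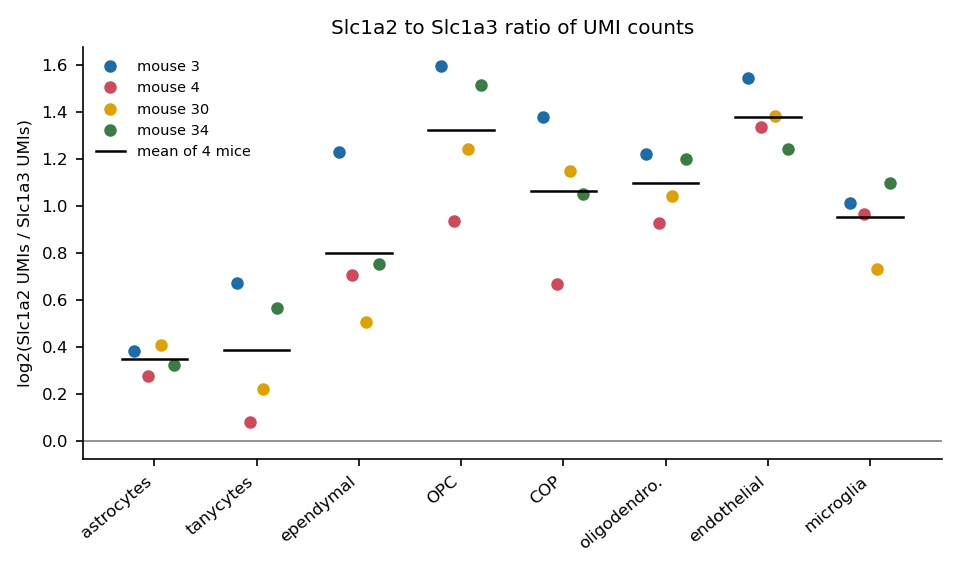
Log2 ratio of Slc1a2 to Slc1a3 UMI counts in 8 cell types, 1 point per mouse and a line for the mean of 4 mice. Astrocytes (mean 0.35) and tanycytes (0.38) are lowest, OPCs (1.32) and endothelial cells (1.38) highest.

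Within types the authors' clusters at a resolution of 0.4 differed in the members, which is a description since clusters are made from expression. Among astrocytes, cluster 8 (806 cells) held more than cluster 0 (5101 cells) of all 6 genes on average, at 5265 ± 732 against 3829 ± 389 CPM for Slc1a2 and 2600 ± 368 against 1958 ± 144 for Glul. It was higher in every mouse for all but Slc7a10, which was 413 against 430 CPM in mouse 3. Cells of cluster 8 were also deeper, with a median of 1113 UMIs against 821. Among tanycytes, cluster 1 held 1766 ± 136 CPM of Slc1a2 and cluster 2 held 1224 ± 94.0, while Slc1a3 was alike at 1214 ± 222 and 1128 ± 210. Among oligodendrocytes, Glul was 2563 ± 194 CPM in cluster 7, 3016 ± 385 in cluster 3 and 3439 ± 367 in cluster 9, and cluster 7 was lowest in all 4 mice.

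Over 32 sums (8 types in 4 mice) the genes most like each member were found by Pearson's r of log2(CPM + 1) among 6579 candidates whose mean reached 50 CPM in some type. The sums share mice and libraries, so r is a description. Slc1a2 and Slc1a3 were each other's closest gene at r = 0.947. Aldoc, the brain aldolase of astrocytes, was next for Slc1a2 at 0.938 and then Cldn10, also at 0.938, while Ttyh1 (0.934) and Aldoc (0.931) followed for Slc1a3. Slc6a11 was closest to Slc4a4 (0.970), a sodium bicarbonate cotransporter, then to Acsbg1 (0.945) and to Fgfr3 (0.943), a receptor for fibroblast growth factors.

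Slc7a10 was closest to Agt (0.955), which encodes angiotensinogen, and to Itih3 (0.949) and Ntsr2 (0.934), and Glud1 to Agt (0.939), Ntsr2 (0.938) and Fgfr3 (0.938). Agt and Ntsr2 belong to the astrocyte marker list. Glul stood apart from the other 5 members, with r from 0.416 to 0.533 against them, whereas the other 5 had r from 0.776 to 0.947 among themselves. Its closest genes were Grm3 (0.863), which encodes the metabotropic glutamate receptor mGluR3, Efhd1 (0.822) and Tmem229a (0.812). Mean Grm3 levels were 62.4 CPM in oligodendrocytes, 29.0 in astrocytes, 16.7 in endothelial cells, 18.1 in microglia and at most 4.87 in the other 4 types.

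Other genes of the pathway were taken from 4 lists. Among 15 other transporters of glutamate, GABA and related amino acids, 7 were tested between astrocytes and tanycytes, of which 3 were higher in astrocytes and 1 in tanycytes, beside 11% and 10.1% of all genes, with a median log2 fold change of 0.96 beside 0.0094 for all genes. Slc6a9, the glycine transporter GlyT1, was higher in astrocytes by 3.49 (SE 0.14) and Slc1a4, the neutral amino acid carrier ASCT1, by 2.15 (SE 0.12). Slc6a6, the taurine transporter, was higher in tanycytes by 2.03 (SE 0.13). Slc1a4 and Slc6a9 were also higher in astrocytes than in ependymal cells and OPCs, and of the 7 tested Slc6a6 was higher in ependymal cells and Slc1a1 in OPCs.

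Slc1a1, the glutamate carrier EAAC1 (EAAT3) known from neurons, had a pattern unlike both members of its family. It stood at 550.4 ± 33.3 CPM in COPs, 82.1 ± 12.5 in OPCs and 4.87 ± 1.84 in oligodendrocytes, and at 3.53 ± 1.84 in astrocytes (SD, n = 4). It was called higher in COPs than in OPCs, with a log2 fold change, OPCs over COPs, of -2.75 (SE 0.14, adjusted p = 3.80e-33), and higher in COPs than in oligodendrocytes by 6.58 (SE 0.17, adjusted p = 2.11e-45), in 4 of 4 mice. COPs thus held the most of this carrier where they held the least Slc1a2 and Slc1a3.

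Among 12 transporters of glutamine, cystine and related amino acids, 8 were tested between astrocytes and tanycytes, 4 were higher in astrocytes and 2 in tanycytes, beside 11% and 10.1% of all genes (median 1.07). Slc38a3, the glutamine carrier SNAT3 that releases glutamine from astrocytes, was higher in astrocytes by 2.74 (SE 0.14), while Slc38a1 and Slc38a2, the SNAT1 and SNAT2 carriers, were higher in tanycytes by 2.11 (SE 0.14) and 2.62 (SE 0.19). Mean Slc38a1 levels were 658 CPM in ependymal cells, 453 in tanycytes and 119 in astrocytes. Slc7a11, the cystine and glutamate exchanger xCT, was higher in astrocytes than in ependymal cells by 2.23 (SE 0.13), than in OPCs by 3.49 (SE 0.15) and than in oligodendrocytes by 3.68 (SE 0.13). Between astrocytes and oligodendrocytes 6 of 8 were higher in astrocytes and 1, Slc38a2 (4.60, SE 0.17), in oligodendrocytes, beside 18% and 12.5% of all genes (median 2.41 beside 0.014).

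Among 20 enzymes of glutamate, glutamine and GABA metabolism, 16 were tested between astrocytes and tanycytes, 5 were higher in astrocytes and 1 in tanycytes, beside 11% and 10.1% of all genes, and 10 were not called (median 0.50). The median stood at 0.18 between astrocytes and OPCs, where 4 of 14 were higher in astrocytes and 5 in OPCs, beside 12.4% and 10.9% of all genes. It stood at -0.067 between astrocytes and oligodendrocytes, where 5 of 16 were higher in astrocytes and 3 in oligodendrocytes, beside 18% and 12.5% of all genes. Prodh, proline dehydrogenase, was higher in astrocytes in 4 of these comparisons, by 1.65 (SE 0.13) over tanycytes, 1.91 (SE 0.16) over ependymal cells, 3.39 (SE 0.23) over OPCs and 3.24 (SE 0.15) over oligodendrocytes. Abat, which breaks down GABA, was higher in astrocytes than in OPCs by 1.51 (SE 0.12) and than in oligodendrocytes by 1.29 (SE 0.098). Bcat1, the cytosolic branched-chain aminotransferase, was higher in oligodendrocytes than in astrocytes by 3.67 (SE 0.20), as was Psat1, a serine synthesis enzyme that uses glutamate, by 2.61 (SE 0.11).

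Glutamate uptake is driven by the sodium gradient, and 12 genes of sodium, potassium and bicarbonate transport were read beside it. Between astrocytes and tanycytes 6 of 12 were higher in astrocytes and 2 in tanycytes, beside 11% and 10.1% of all genes (median 1.35). Slc4a4 was higher in astrocytes by 3.00 (SE 0.074), the sodium pump subunit Atp1b2 by 1.95 (SE 0.076), and the potassium channel subunits Kcnj10 by 2.09 (SE 0.087) and Kcnj16 by 2.40 (SE 0.12). Between COPs and oligodendrocytes none was higher in COPs and 4 of 10 were higher in oligodendrocytes, beside 13.3% and 13.8% of all genes, led by Car2, carbonic anhydrase 2, by 5.81 (SE 0.14).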

How the data were processed

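Hypothalamic cells of mice given FGF1 R50E were sequenced by droplet 3' RNA-seq with UMIs. The deposited matrix holds raw UMI counts per gene and cell, which the authors had filtered, clustered and assigned to cell types. The submitters' processing notes name Cell Ranger 1.2, Seurat and the builds GRCm38, mm10 and GRCh38 without roles, and how types were named is not given in the sources used here. The deposited metadata also give a mitochondrial percent and a doublet score (a fraction from 0 to 1), whose caller is not given in the sources used here. No cell was removed for doublets in the main results. The depth-corrected matrix was not used, nor were 12 libraries (50172 cells) that match no labelled sample. Of the labelled samples, 2 have no cells in the table.

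UMI counts were summed per mouse and type where a type had at least 20 cells, and levels are counts scaled to a common total of 1e+06 (CPM). Depth ran from 3299971 to 8856079 UMIs per mouse, and sums of microglia were smallest, at 44756 to 133441. Types of the same mice were compared in edgeR 4.0.16 (R 4.3.3) with quasi-likelihood F tests, TMM scaling, filterByExpr and mouse as a block, since both types come from the same animals. P-values were adjusted over all genes tested (Benjamini-Hochberg), and a call needs an adjusted p below 0.05 and an absolute log2 fold change above 1. With mouse as a block, they set the difference between types against its spread over these 4 mice, estimated with help from all genes tested. Very small p-values thus do not rest on 4 mice alone. Standard errors are the fold change over the root of the F statistic. Alternatives were DESeq2 1.42.0, RLE scaling, no filter, no block, a joint fit over 8 types, leaving out each mouse, and leaving out the 10% of cells with the highest doublet score. The members and lists were chosen with earlier results of these data known. All members are named, along with list genes and the genes most like each member. Some list genes are counted with their list but not reported here by name.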

Additional observations from a re-analysis of the deposited data

Results flagged for a closer look

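Each group of 4 mice was checked for 1 mouse far from the other 3, over 48 levels and 8 ratios, and chance alone marks about 1 in 20 such groups. In endothelial cells, Slc1a3 was at 441.9 CPM in mouse 4, while the other 3 mice lay between 354.9 and 360.5 CPM. In oligodendrocyte precursor cells, Glul was at 700.6 CPM in mouse 30, while the other 3 lay between 528 and 549 CPM. Those are 2 of 56 groups.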

How the results depend on the processing

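Without the filter on low counts, 2725 genes were called between astrocytes and OPCs (1604 with it), 2301 between OPCs and COPs (1172) and 2594 between COPs and oligodendrocytes (1683), and the joint fit over 8 types called 2132 between OPCs and COPs. These settings also test more genes or share 1 estimate of spread. DESeq2, RLE scaling, no filter, the joint fit and the fit without mouse as a replicate block left all 42 calls of members as they were, and without the block 2118 genes were called between astrocytes and tanycytes (2128 with it).

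Leaving out 1 mouse gave -1.07 to -0.99 for Slc6a11 and -1.02 to -0.43 for Slc7a10 between COPs and oligodendrocytes, and 0.98 to 1.48 for Slc7a10 between OPCs and COPs. Slc6a11 fell short without mouse 3 or mouse 30, and at -0.99 without the cells of highest doublet score. Slc7a10 fell short between OPCs and COPs without mouse 30, and passed between COPs and oligodendrocytes without mouse 3. It could not be tested there without the cells of highest doublet score, since it did not pass the filter. The cause was not tested.

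The astrocyte minus tanycyte difference of the log2 Slc1a2 to Slc1a3 ratio ran from -0.12 to 0.045 with 1 mouse left out and changed sign without mouse 3 (0.045) or mouse 34 (0.029). That of COPs minus oligodendrocytes (-0.036) ran from -0.10 to 0.039 and changed sign without mouse 4 (0.039), mouse 34 (0.00069) or the cells of highest doublet score (0.044). UMIs per cell in place of CPM was an alternative chosen after seeing the data. It moved 32 of 42 log2 ratios of the members by more than the spread between mice, reversed 2 and left 8 the same. The reversed ones were Glud1, which turned to -0.011 between OPCs and COPs and to 0.24 between COPs and oligodendrocytes. Levels of Slc7a10 outside astrocytes are limited by depth, with 16 to 146 UMIs per type. Thinning to 900 UMIs moved 45 of 48 shares of cells by more than the spread between mice, and no thinning moved all 48.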
